A study of Mus musculus with 4 samples.

Results

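The BCL-2 family controls cell death through mitochondria, and 10 of its genes were followed over 4 populations of mouse CD4+ CD8- thymocytes. The genes were Bcl2, Bcl2l1, Mcl1, Bax, Bak1, Bcl2l11, Bbc3, Bid, Bad and Bmf. They were chosen by name, as every probe set that the platform annotation gives to 1 of these symbols. That search found 31 of 45037 probe sets, for 9 of the 10 members and of 18193 named genes in all; Bax was not among them and was not analysed here. The main probe set of a gene was the one with the highest mean over the 4 arrays.

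RNA came from female mice of 6 to 8 weeks, was amplified in 2 rounds and was hybridised to Affymetrix mouse 430 2.0 arrays, 1 array per population. Thymocytes were sorted on magnetic beads and then by flow cytometry, and RNA was taken straight after isolation. Foxp3(gfp/gfp) mice carry on both X chromosomes a Foxp3 allele that encodes a GFP-Foxp3 fusion protein, so that cells making Foxp3, the transcription factor of regulatory T cells, fluoresce. They gave 3 arrays, of which 2 hold GFP- cells, either CD25- or CD25+, and 1 holds GFP+ cells, named Foxp3-fusion here. Foxp3(gfpko/wt) females are heterozygous for a GFP-tagged knockout allele and gave the fourth array, GFP+ cells that use the knockout allele, named Foxp3-null here. The other Foxp3 allele of these females is wild type, so functional regulatory T cells can exist in the same animals. Per the labels, the Foxp3-null mice were at backcross generation 2 from 129/Sv to C57BL/6, and the other 3 groups at generations 4 to 6. Genotype, backcross and array cannot be told apart in any comparison with Foxp3-null cells. The labels do not state how many mice were pooled. With 1 array per population no value below has an error or a p-value, and having so few arrays limits the precision of all differences.

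Values are log2 signals after quantile normalization, which gives all arrays the same distribution, unless they are called deposited values. A floor of 4.12 log2 (4.19 on the deposited scale) was set from genes that are silent in thymocytes, and a signal below it was taken as not measured. Where only 1 of the 2 arrays was above the floor the fold is given as "at least". A gene was counted as different when 2 arrays were at least 2-fold apart, that is 1 log2 unit. In bulk RNA, fewer cells that express a gene and less RNA per cell cannot be told apart.

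The sorted cells carried T cell transcripts. Of 6 CD4 thymocyte markers, 5 had a probe set, and all 5 (Cd4, Cd3e, Cd3g, Cd3d and Themis) were above the floor on every array. Of 25 measured markers of B cells, macrophages and dendritic cells, natural killer cells, erythroid cells, gamma delta and CD8 T cells and thymic epithelium, 8 were above the floor on at least 1 array. These were Ms4a1, Csf1r, Adgre1, Klrd1, Eomes, Cd8a, Epcam and Krt5. Klrd1, a natural killer cell receptor gene, was above the floor only in GFP- CD25- cells, at 6.32 log2 against 3.49, 3.55 and 3.38 in GFP- CD25+, Foxp3-null and Foxp3-fusion cells. The summed linear signal of the 25 ran from 343.0 in Foxp3-fusion cells to 520.2 in Foxp3-null cells, with 424 in GFP- CD25- and 443 in GFP- CD25+ cells. Cd79a, Pax5, Itgax, Cd68, Ncr1, Foxn1 and Alas2 were under the floor on all 4 arrays. Their part in the differences below was not tested. Amplified products lost their 5' ends to unequal degrees. The actin control probe sets of the 3' and 5' ends were 8.37, 9.29, 7.10 and 5.02 log2 units apart on the deposited scale on the GFP- CD25-, GFP- CD25+, Foxp3-null and Foxp3-fusion arrays, an order kept in all lists of 4 values below. The part of this gap in the differences was not tested either.

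BCL-2 family proteins meet at the outer mitochondrial membrane. Survival members (Bcl2, Bcl2l1 which encodes BCL-XL, and Mcl1) hold the pore-forming members BAX and BAK in check, and BH3-only proteins (BIM from Bcl2l11, PUMA from Bbc3, BID, BAD and BMF) release that check or trigger the pore directly. In the thymus BIM is known for the death of cells whose receptor binds self antigen strongly, and BCL-2 and MCL-1 are known to keep thymocytes alive. Cytokines that signal through the common gamma chain, such as IL-7 and IL-2, are known to sustain survival members.

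Of the 9 measured members, 6 were above the floor on all 4 arrays by their main probe set: Bcl2, Bcl2l1, Mcl1, Bcl2l11, Bbc3 and Bad. Bmf was above it on 1 array, and Bak1 and Bid were under it on all 4. Of the 31 probe sets, 16 were above the floor on every array and 13 were under it on every array. With deposited values Bbc3 was above the floor on 3 arrays only, and under it in GFP- CD25- cells at 4.16 log2. Only Bcl2, Bcl2l11 and Bmf, of these 9, had a main probe set that was at least 2-fold apart between any 2 arrays.

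**Figure D1:**
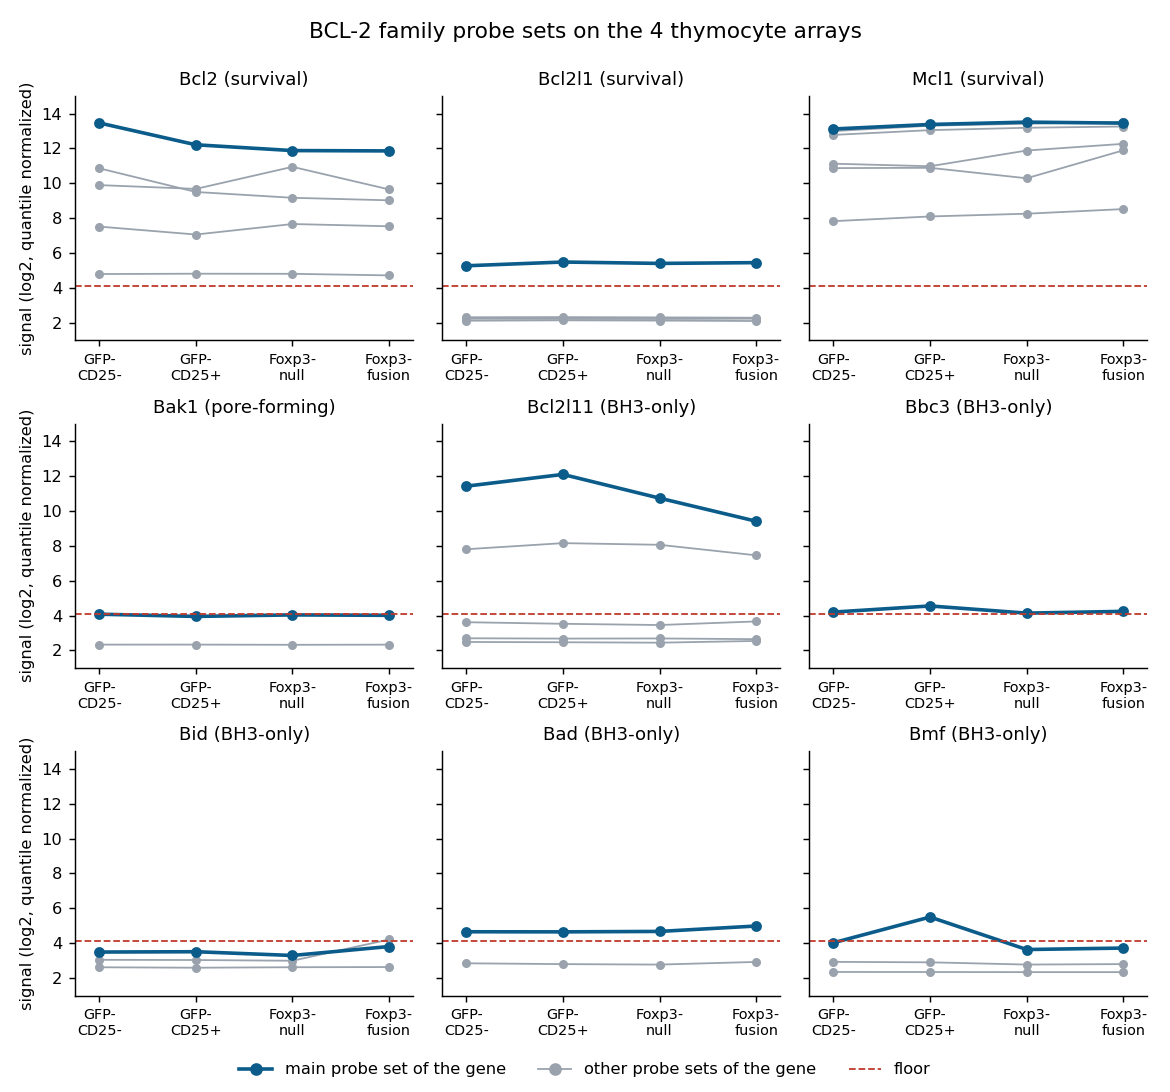
Signal of every probe set of the 9 measured members (log2, quantile normalized; y axis) on the 4 arrays (x axis), 1 point per array, with the main probe set in blue, the other probe sets in grey and the floor of 4.12 log2 dashed. Bcl2 is highest in GFP- CD25- cells and Bcl2l11 in GFP- CD25+ cells, while Bcl2l1, Bbc3 and Bad stay nearly level.

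Among the survival genes, Bcl2 was highest in cells that had neither GFP nor CD25. Its main probe set, 1440770_at, read 13.46 log2 in GFP- CD25- cells. It read 12.21 in GFP- CD25+, 11.88 in Foxp3-null and 11.86 in Foxp3-fusion cells. The 3 arrays with GFP or CD25 thus lay close together and below the first. Against GFP- CD25- cells, Bcl2 signal was 2.38-fold lower in GFP- CD25+, 2.999-fold lower in Foxp3-null and 3.04-fold lower in Foxp3-fusion cells. On the deposited scale the same folds were 2.45, 3.504 and 2.48. These comparisons share the GFP- CD25- array, so a deviation of that array alone would appear in all of them. Klrd1 was likewise higher on that array than on the other 3, while Eomes, also a natural killer marker, was lowest there. The part of such cells in the Bcl2 difference was not tested.

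The probe sets of Bcl2 did not share 1 pattern. Probe set 1443837_x_at had the same order of arrays as the main one, at 10.86, 9.50, 9.17 and 9.03 log2, and was 3.57-fold lower in Foxp3-fusion than in GFP- CD25- cells. The ending _x_at marks a probe set whose probes can also bind other transcripts. The other 3 probe sets showed no such step over all 3 arrays with GFP or CD25. Probe set 1437122_at read 7.52, 7.06, 7.67 and 7.54 log2, and 1422938_at read 4.80, 4.82, 4.81 and 4.72. Probe set 1457687_at was instead highest in Foxp3-null cells, at 9.90, 9.68, 10.95 and 9.65 log2, which is 2.07-fold above GFP- CD25- cells; on the deposited scale that fold was 1.62. The 2-fold lower Bcl2 signal in GFP+ and CD25+ cells therefore rested on 2 of 5 probe sets above the floor. Smaller differences in GFP- CD25+ over GFP- CD25- cells were -0.45 log2 on 1437122_at, -0.22 on 1457687_at and 0.02 on 1422938_at. With deposited values these were -0.72, -0.45 and 0.01. Which part of the transcript each probe set reads was not determined here.

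Mcl1, whose protein turns over quickly, was close to level on its main probe set and higher in Foxp3-fusion cells on others. The main probe set, 1456243_x_at, read 13.12, 13.37, 13.51 and 13.45 log2, a range of 0.39. On 2 further _x_at probe sets the values ran from 12.78 to 13.26 and from 13.00 to 13.51 log2. Those 3 are among the brightest on the array and differed by at most 1.43-fold between any 2 arrays, or 1.57-fold with deposited values. The 3 probe sets with the plain ending _at differed more. Probe set 1416880_at read 11.13, 10.98, 11.88 and 12.26 log2, so Foxp3-fusion cells were 2.20-fold above GFP- CD25- cells. Probe set 1448503_at read 10.87, 10.89, 10.29 and 11.89 log2, 2.03-fold above GFP- CD25- cells and 3.03-fold above Foxp3-null cells. Probe set 1416881_at read 7.83, 8.10, 8.26 and 8.52 log2.

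All 6 Mcl1 probe sets were thus higher in Foxp3-fusion than in GFP- CD25- cells, by 0.34 to 1.14 log2, and by 0.50 to 1.38 on the deposited scale. Against Foxp3-null cells, Foxp3-fusion cells were higher on all 6 with deposited values, but on the quantile normalized scale the main probe set was 0.06 log2 lower and the others 0.07 to 1.60 higher. For Foxp3-null over GFP- CD25- cells 1448503_at went the opposite way to the other 5, at -0.58 log2.

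Bcl2l1 was level. Its main probe set, 1420888_at, read 5.27, 5.49, 5.41 and 5.45 log2, and no 2 arrays were more than 1.16-fold apart. On the deposited scale the largest difference was 1.31-fold, for Foxp3-fusion over Foxp3-null cells. The other 3 Bcl2l1 probe sets were under the floor on all arrays. Among the 3 survival genes, only Bcl2 was therefore 2-fold apart by its main probe set.

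Bak1, the measured pore-forming member, gave no difference that can be stated. Its main probe set read 4.08, 3.95, 4.04 and 4.01 log2, just under the floor on every array, and the other read 2.32 to 2.34.

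Bcl2l11, the gene of BIM, had the widest range of the members above the floor on all arrays. Its main probe set, 1456005_a_at, read 11.42 log2 in GFP- CD25- and 12.09 in GFP- CD25+ cells. It read 10.73 in Foxp3-null and 9.41 in Foxp3-fusion cells. The 2 GFP- arrays were both above the 2 GFP+ arrays. Against GFP- CD25+ cells, Bcl2l11 signal was 6.42-fold lower in Foxp3-fusion cells (4.98-fold on the deposited scale) and 2.57-fold lower in Foxp3-null cells (3.06-fold). Against GFP- CD25- cells it was 4.02-fold lower in Foxp3-fusion cells (3.25-fold on the deposited scale), and 1.61-fold lower in Foxp3-null cells (1.997-fold), short of the threshold on both scales.

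The difference between the GFP+ populations depended on the scale. Foxp3-fusion cells were 2.50-fold below Foxp3-null cells after quantile normalization and 1.63-fold below them on the deposited scale. GFP- CD25+ cells were 1.60-fold above GFP- CD25- cells, and 1.53-fold with deposited values.

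The other probe set of Bcl2l11 above the floor, 1435448_at, was nearly flat. It read 7.80, 8.15, 8.06 and 7.46 log2, and its deposited values were 7.90, 7.97, 7.80 and 7.81. GFP- CD25+ cells were highest on it too, and Foxp3-fusion cells were 1.62-fold below them, or 1.12-fold on the deposited scale. The ending _a_at of the main probe set marks probes shared by several transcripts of a gene, and Bcl2l11 is known for many splice forms. The remaining 3 probe sets were under the floor on all arrays. The 2-fold differences of Bcl2l11 thus rest on 1 of 2 measured probe sets.

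**Figure D2:**
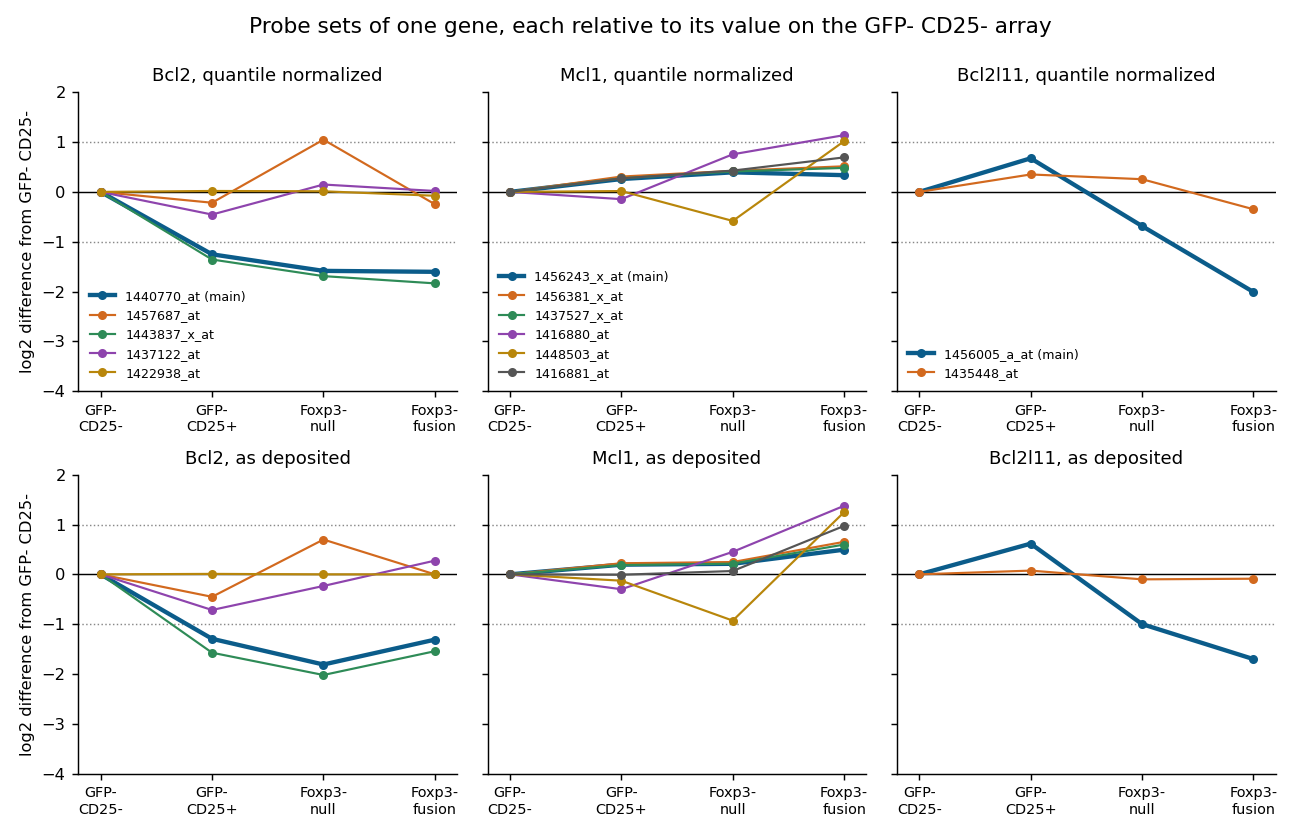
Log2 difference of each probe set of Bcl2, Mcl1 and Bcl2l11 from its own value on the GFP- CD25- array (y axis) over the 4 arrays (x axis), for probe sets above the floor on all arrays, with quantile normalized values in the upper row and deposited values in the lower row. Dotted lines mark 2-fold; 2 of 5 Bcl2 lines and 1 of 2 Bcl2l11 lines pass the lower dotted line in Foxp3-fusion cells, and all 6 Mcl1 lines lie above 0 there.

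Bmf, whose protein is kept at the cytoskeleton in healthy cells, was above the floor only in GFP- CD25+ cells. Its main probe set, 1454880_s_at, read 4.02, 5.50, 3.64 and 3.72 log2. GFP- CD25+ cells were at least 2.60-fold above each of the other 3 populations, and at least 2.32-fold on the deposited scale. The ending _s_at marks a sequence shared by more than 1 transcript. The 2 other probe sets of Bmf were under the floor on every array, so the signal rests on this one.

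The remaining BH3-only genes were near the floor. Bbc3, the gene of PUMA, read 4.20, 4.55, 4.14 and 4.24 log2, highest in GFP- CD25+ cells by no more than 1.33-fold. Bad read 4.65, 4.65, 4.67 and 4.98 log2 on the probe set 1416582_a_at, with Foxp3-fusion cells at most 1.26-fold above the others, or 1.38-fold on the deposited scale. The other Bad probe set was at 2.83 on all 4 arrays in the deposited table. Bid read 3.49, 3.51, 3.30 and 3.81 log2 on its main probe set. A second Bid probe set, 1417045_at, read 3.05, 3.03, 2.99 and 4.21 log2, above the floor in Foxp3-fusion cells after quantile normalization, but under it with deposited values.

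GFP- CD25+ cells thus had the highest main-probe-set signal of Bcl2l11, Bmf and Bbc3, and also of the survival gene Bcl2l1. Against GFP- CD25- cells only Bmf of these was at least 2-fold higher. Bcl2l11, Bbc3 and Bcl2l1 were 1.60-fold, 1.28-fold and 1.16-fold higher. With deposited values Bcl2l1 was instead highest in Foxp3-fusion cells, at 5.66 log2 against 5.39 in GFP- CD25+ cells. Bcl2l11 and Bbc3 are known targets of FOXO transcription factors, whose forkhead domain is related to that of FOXP3 and which bind the motif GTAAACA. The start-site windows of all 10 members were searched for it. Because the motif was chosen with these targets known, a match in Bcl2l11 or Bbc3 adds no independent evidence. The windows are the 250 bases before each annotated start in RefSeq, build GRCm38.p6, 18 windows for the 10 members; both strands were read. The motif was found in 2 of the 18, 1 of Bcl2l11 and 1 of Bbc3, against 3.17% of all 32851 windows. The motif TTCNNNGAA, bound by STAT5, was in 0 of the 18 and in 7.02% of all windows. With so few member windows, neither count says anything about the members as a group. The windows with a forkhead match are shown with the match in capitals, which in Bbc3 reads as the reverse complement. The Bcl2l11 window is chr2:128125788-128126037 on the + strand and is 1 of 2 for that gene. The Bbc3 window is chr7:16310011-16310260 on the + strand and is 1 of 3.
Bcl2l11: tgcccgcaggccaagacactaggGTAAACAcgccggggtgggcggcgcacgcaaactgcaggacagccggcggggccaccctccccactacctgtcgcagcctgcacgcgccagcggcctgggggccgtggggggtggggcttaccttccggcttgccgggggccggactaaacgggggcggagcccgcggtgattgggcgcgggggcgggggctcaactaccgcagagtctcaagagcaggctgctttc
Bbc3: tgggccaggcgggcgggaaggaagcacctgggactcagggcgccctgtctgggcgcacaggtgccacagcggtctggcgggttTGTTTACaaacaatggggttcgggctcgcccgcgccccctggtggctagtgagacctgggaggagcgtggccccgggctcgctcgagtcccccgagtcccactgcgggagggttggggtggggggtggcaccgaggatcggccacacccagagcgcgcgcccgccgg
The match ends 220 bases before the end of the Bcl2l11 window and 160 bases before that of the Bbc3 window. A match describes the letters and shows no binding, and the arrays measured no binding of any factor.

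Read by comparison, 1 or 2 members were 2-fold apart in each after quantile normalization. In Foxp3-fusion over GFP- CD25- cells 2 of 6 measured members were at least 2-fold apart, Bcl2 and Bcl2l11, both lower, where 15.3% of 8122 measured genes were 2-fold apart and 5.31% were 2-fold lower. The deposited scale gave the same 2 genes, with 18.5% of genes apart and 3.67% lower. The median log2 difference was 0.11 over the 6 members and -0.05 over all genes.

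In Foxp3-null over GFP- CD25- cells only Bcl2 of 6 measured members was 2-fold apart, against a background of 18.3% apart and 7.51% lower (17.0% and 11.6% on the deposited scale). The median was -0.02 over members and 0.19 over all genes. In Foxp3-fusion over Foxp3-null cells, the comparison that bears on Foxp3 protein in cells using its locus, only Bcl2l11 of 6 was 2-fold apart, against 18.6% apart and 9.37% lower. On the deposited scale 0 of 6 were, against 23.3% apart and 3.86% lower. Bcl2 differed by 0.02 log2 there after quantile normalization and was 0.50 log2 higher in Foxp3-fusion cells with deposited values.

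In GFP- CD25+ over GFP- CD25- cells 2 of 7 measured members were 2-fold apart, Bcl2 lower and Bmf higher, against 8.62% of genes (4.12% higher and 4.49% lower). In Foxp3-fusion over GFP- CD25+ cells 2 of 7, Bcl2l11 and Bmf, were 2-fold apart and both lower, where 8.11% of genes were lower and 19.7% were apart. For Foxp3-null over GFP- CD25+ cells the same 2 of 7 were lower, against 15.9% apart and 7.29% lower. The deposited scale gave the same members in these 3 comparisons, with 9.91%, 24.2% and 14.4% of genes apart. With 6 or 7 measured members, each of these shares turns on 1 or 2 genes.

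Quantile normalization moved the balance of all genes. From quantile normalized to deposited values the median of all genes measured went from -0.05 to 0.12 in Foxp3-fusion over GFP- CD25- cells, from -0.15 to 0.23 over Foxp3-null cells and from -0.09 to 0.18 over GFP- CD25+ cells. Genes 2-fold higher and lower were 9.27% and 9.37% in Foxp3-fusion over Foxp3-null cells, and 19.5% and 3.86% with deposited values. In that comparison the difference of Bcl2l1 was 0.04 log2 on the first scale and 0.38 on the second, and that of the main Mcl1 probe set changed sign, from -0.06 to 0.28. Of all probe sets, 6108 (13.6%) hold the same deposited value on 2 or more arrays, among them 6 of the 31 member probe sets. An example is Bcl2 probe set 1457687_at, at 9.97 in both GFP- CD25- and Foxp3-fusion cells, where quantile normalization put 0.25 log2 between them.

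**Figure D3:**
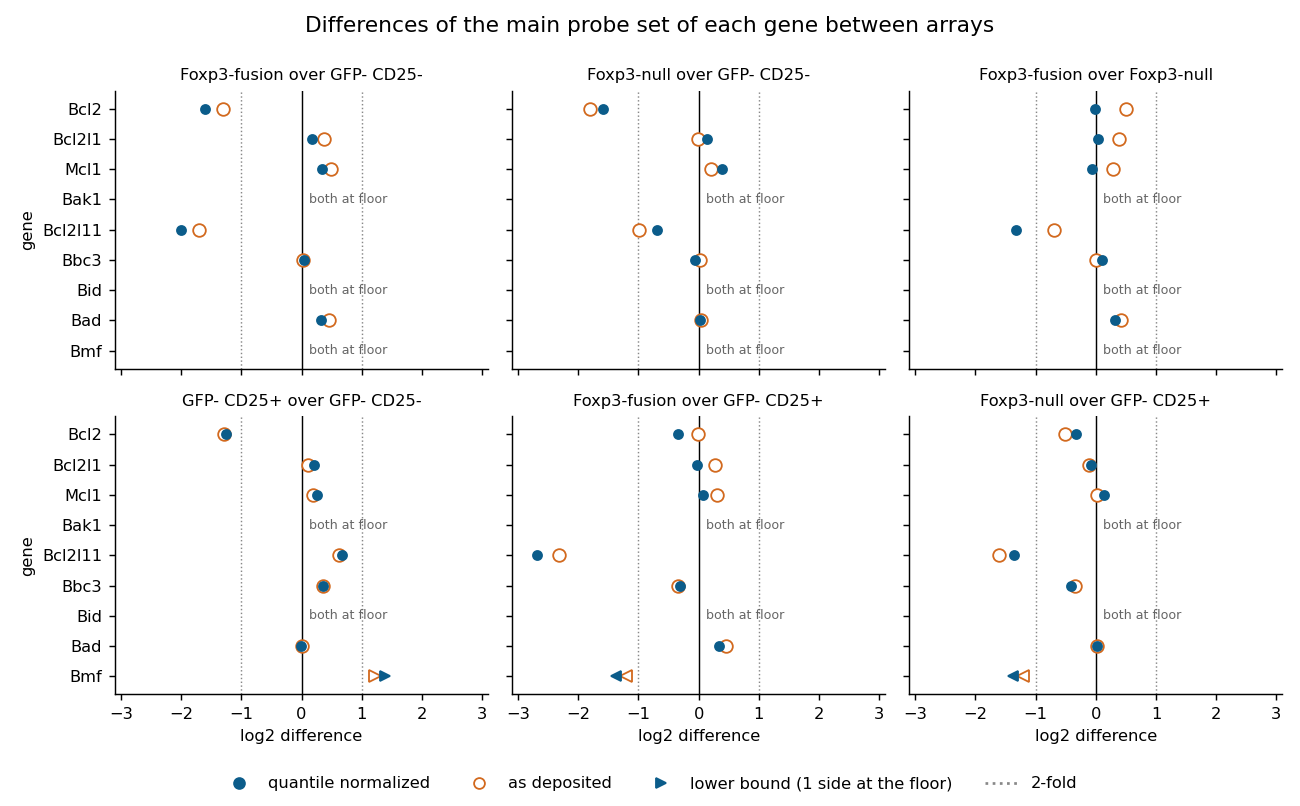
Log2 difference of the main probe set of each measured member (x axis; genes on the y axis) in the 6 comparisons of arrays, with quantile normalized values filled, deposited values open, triangles for lower bounds and dotted lines at 2-fold. Bcl2 lies past the lower 2-fold line in the 3 comparisons with GFP- CD25- cells, Bcl2l11 in Foxp3-fusion over each other array on the quantile normalized scale, and the open point of Bcl2l11 in Foxp3-fusion over Foxp3-null cells lies inside it.

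The other genes of the pathway were taken from 4 lists. Of 15 further BCL-2 family genes, 11 had a probe set and 2 to 4 were measured per comparison; 0 were 2-fold apart in any of the 6 comparisons, on either scale. Bik, a BH3-only gene, read 3.89, 4.87, 4.50 and 3.91 log2 on its main probe set. Its probe sets 1420363_at and 1449836_x_at were above the floor only in Foxp3-null cells, at 4.74 and 4.62 log2. Pmaip1, the gene of NOXA, was above the floor only in Foxp3-fusion cells, at 4.38 log2. Bcl2l2, a survival gene, read 4.60, 4.61, 4.76 and 4.52 log2.

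Downstream of the mitochondria, 13 of 15 listed genes of the apoptosome, caspases and their inhibitors had a probe set. In Foxp3-fusion over GFP- CD25- cells 3 of 12 measured were 2-fold higher and 0 lower, against 9.99% and 5.31% of all genes. With deposited values 5 were higher and 0 lower, against 14.8% and 3.67%. Apaf1, the scaffold on which caspase 9 is activated, read 4.98, 4.88, 5.30 and 7.44 log2 with Foxp3-fusion cells 5.50-fold above GFP- CD25- cells. A second probe set of Apaf1 was under the floor on all arrays. Birc2 and Birc3, which encode the ubiquitin ligases cIAP1 and cIAP2, were 2.54-fold and 2.497-fold higher. Birc3 differed by under 2-fold between all arrays on its second probe set, at 7.44, 7.82, 7.36 and 7.29 log2.

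In Foxp3-null over GFP- CD25- cells 3 of 11 of these genes were 2-fold higher (Htra2, Birc3 and Birc5) and 1 lower, against 10.8% and 7.51% of all genes. On the deposited scale 0 were higher and 2 lower, against 5.45% and 11.6%. Casp2, a caspase gene linked to the response to DNA damage, was the lower one. It read 7.51, 6.02, 5.30 and 8.30 log2 on a single probe set, 4.64-fold lower in Foxp3-null than in GFP- CD25- cells. Casp2 was 8.01-fold and Apaf1 4.42-fold higher in the GFP+ cells with Foxp3 fusion protein than in Foxp3-null cells, with 2 of 12 higher and 1, Birc5, lower, against 9.27% and 9.37% of all genes. With deposited values 5 were higher and 0 lower, and the shares of all genes moved the same way, to 19.5% and 3.86%. In GFP- CD25+ over GFP- CD25- cells 1 of 11 was higher (Birc3) and 1 lower (Casp2), against 4.12% and 4.49%, and with deposited values 0 and 2, against 2.77% and 7.14%. Foxp3-fusion over GFP- CD25+ cells gave 5 of 12 higher and 0 lower, namely Apaf1, Casp6, Casp2, Xiap and Birc2, against 11.6% and 8.11% of all genes (5 and 0 with deposited values, against 21.0% and 3.29%). The Xiap call was on the main probe set only. Probe sets 1450232_at, 1456088_at and 1426636_a_at were at -1.11, -0.82 and -0.56 log2 there, so no direction can be given for Xiap. In Foxp3-null over GFP- CD25+ cells 0 of 11 were 2-fold apart, against 15.9% of all genes, and 1 was lower with deposited values, against 8.12%.

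Of 9 death receptor genes with a probe set, 7 were measured. Fas, which encodes a receptor that triggers caspase 8, was the one 2-fold apart in Foxp3-null over GFP- CD25- cells, 2.77-fold higher, at 5.17, 5.78, 6.64 and 5.94 log2. Casp8 was the one in Foxp3-fusion over GFP- CD25+ cells, 2.62-fold higher. The other 4 comparisons had 0 of 7 after quantile normalization. Over all genes 8.62% to 19.7% were 2-fold apart in the 6 comparisons, so 0 or 1 of 7 is about the background. Deposited values gave 2 higher in Foxp3-fusion over GFP- CD25- cells, against 14.8% of all genes, and 2 higher over Foxp3-null cells, against 19.5%. These counts use the main probe set of each gene. For Cflar, probe set 1453482_at read 7.07, 6.43, 3.68 and 6.36 log2, at least 7.73-fold lower in Foxp3-null than in GFP- CD25- cells. In that comparison its main probe set was 1.53-fold lower, 1425687_at 2.25-fold lower and 1449317_at 1.24-fold higher.

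Genes known to act on the members differed in both directions. In Foxp3-fusion over GFP- CD25- cells 5 of 19 measured were higher (Il2rb, Stat5a, Foxo1, Nr4a3 and Pim1) and 2 lower (Il7r and Ywhaz), against 9.99% and 5.31% of all genes. In Foxp3-null over GFP- CD25- cells 5 were higher and 3 lower, against 10.8% and 7.51%, and in Foxp3-fusion over Foxp3-null cells 3 and 2, against 9.27% and 9.37%. The deposited scale gave 6 and 1 (all genes 14.8% and 3.67%), 3 and 4 (5.45% and 11.6%), and 6 and 0 (19.5% and 3.86%), so these counts moved between scales in the direction of all genes. Il7r, the IL-7 receptor chain, read 11.23, 8.22, 9.41 and 9.93 log2 and was highest in GFP- CD25- cells, as the main Bcl2 probe set was. Unlike the main Bcl2 probe set, that of Il7r was lowest in GFP- CD25+ cells, 8.09-fold lower than in GFP- CD25- cells. Its other probe set, 1448576_at, read 9.34, 6.94, 6.23 and 7.74 log2. That one was also highest in GFP- CD25- cells but lowest in Foxp3-null cells, 8.59-fold lower. A link between Il7r and Bcl2 was not tested. Il2rb, a chain of the IL-2 receptor, read 3.95, 4.78, 7.25 and 7.59 log2. Pim1, a survival kinase gene, read 5.16, 6.85, 6.39 and 9.14 log2 with Foxp3-fusion cells 6.75-fold above Foxp3-null cells. Stat5b, a transducer of both receptors, was lowest in Foxp3-null cells, at 7.92, 7.47, 6.88 and 8.54 log2.

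Foxo1 read 9.78, 10.18, 10.86 and 10.85 log2, highest in the GFP+ cells, with Foxp3-fusion cells 2.09-fold above GFP- CD25- cells. Its other 2 measured probe sets were 0.36 and 0.94 log2 higher in that comparison, short of 2-fold. With deposited values they were 0.62 and 1.21 log2 higher, the latter past 2-fold. Foxo3 read 9.75, 9.89, 10.57 and 9.40 log2, with Foxp3-fusion cells 2.25-fold below Foxp3-null cells, or 1.48-fold with deposited values. Its second measured probe set, 1434832_at, read 5.75, 6.03, 7.08 and 6.80 log2, 1.22-fold lower in that comparison and 0.35 log2 higher with deposited values. Nr4a3, a nuclear receptor gene induced by T cell receptor signals, was lowest in GFP- CD25- cells, at 7.82, 9.68, 10.37 and 9.96 log2. Ywhaz, whose 14-3-3 protein holds BAD in the cytosol, was 2.21-fold lower in Foxp3-fusion than in GFP- CD25- cells on its main probe set and 4.66-fold higher on probe set 1448218_s_at, so no direction can be given.

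In GFP- CD25+ over GFP- CD25- cells 2 of 19 of these genes were higher (Nr4a3 and Pim1) and 2 lower (Il7r and Jak1), against 4.12% and 4.49% of all genes, with the same counts for deposited values, against 2.77% and 7.14%. In Foxp3-fusion over GFP- CD25+ cells 5 were higher and 0 lower, against 11.6% and 8.11%, and with deposited values 8 and 0, against 21.0% and 3.29%. In Foxp3-null over GFP- CD25+ cells 5 were higher and 1 lower, against 8.60% and 7.29%, and with deposited values 4 and 1, against 6.26% and 8.12%.

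**Figure D4:**
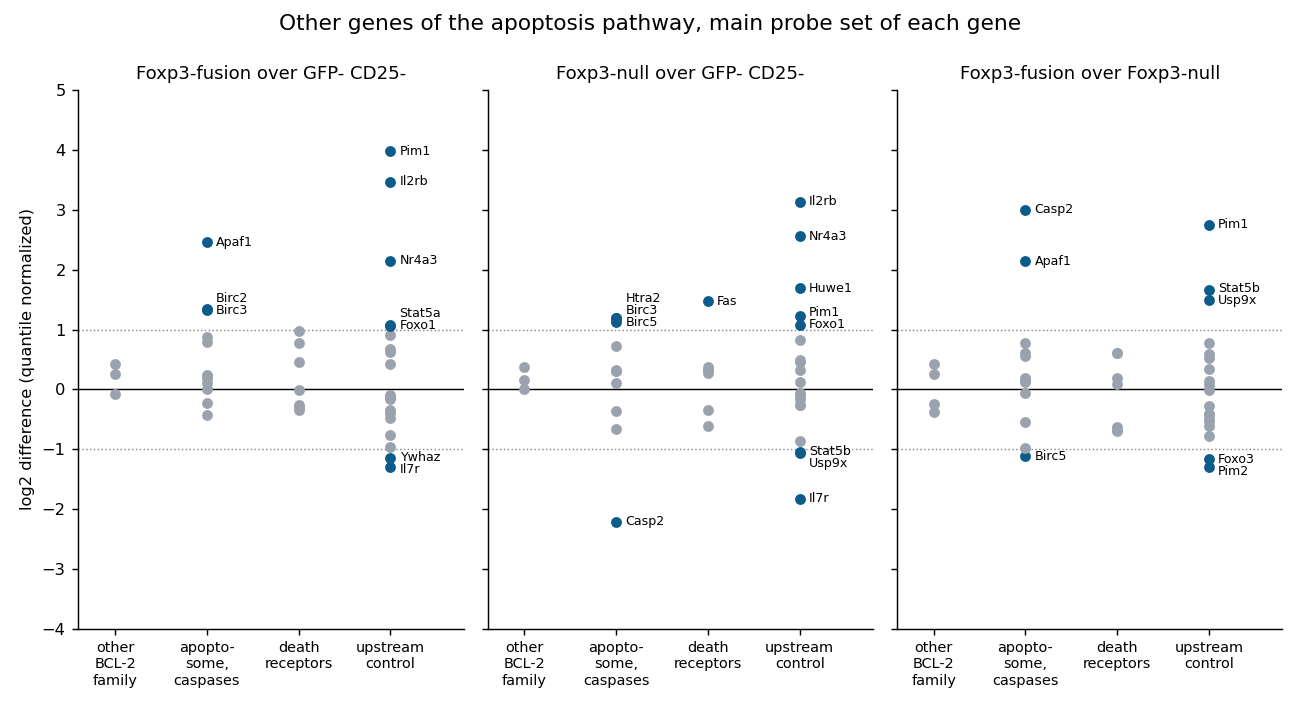
Log2 difference (y axis) of each measured gene of the 4 pathway lists (x axis) by its main probe set, in 3 comparisons of arrays, with genes at least 2-fold apart in blue and named, and values under the floor set to it, so that the differences of Il2rb from GFP- CD25- cells are lower bounds. No gene of the other BCL-2 family list passes the dotted 2-fold lines, while Apaf1, Casp2 and Pim1 lie far above them in Foxp3-fusion over Foxp3-null cells.

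Over the 7220 genes above the floor on all arrays, those nearest to a member in profile over the 4 arrays, each centred on its own mean, were named as a description. For Bcl2 they were Bcorl1, Hs2st1 and Sgk3, at Euclidean distances of 0.09, 0.14 and 0.15 log2. Bcorl1 read 6.35, 5.16, 4.74 and 4.69 log2. For Bcl2l11 they were Zfp783, Foxn3 and Tbc1d1, at 0.56, 0.58 and 0.63, so no gene was as near to it as those were to Bcl2. For Mcl1 they were Sbds, Mrpl24 and Golgb1, at 0.04 each. With 4 points per profile these distances are a description only.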

How the data were processed

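The deposited table holds 1 log2 value per probe set and array, and per the labels' protocols RNA was amplified in 2 rounds with Affymetrix reagents. How the authors corrected background, summarised probes and normalized is not stated in the sources used here. The log2 base was inferred from the range of values. Of 45101 probe sets, 64 controls were left out. The platform annotation gave 1 gene to 34945 probe sets, several to 932 and none to 9160; 34741 had a gene identifier in the RefSeq table of GRCm38.p6, used for names only. Values were quantile normalized because the 90th percentiles of the arrays ran from 7.54 to 8.16 log2. The main probe set of a gene had the highest mean of its 4 deposited values. The floor was the highest 90th percentile, over arrays, of 55 probe sets of 33 silent tissue genes. Lower values were set to it, and genes under it on both arrays were left out of a comparison. With 1 array per group no test was made; differences of at least 2-fold were counted in the 6 pairs of arrays. Members were all named; pathway genes were named mainly when 2-fold apart. Probe sets of such genes, and Bik, Pmaip1, Bcl2l2 and Cflar, were described after their values were seen. The members, lists and motifs were chosen with earlier results of these data known. Alternatives tried were deposited values, arrays centred on their medians, no floor, a higher floor, the median over probe sets, probe sets with the plain ending _at, and thresholds of 3-fold and 1.5-fold. The steps were tested on simulated data and run with Python 3.11.15, numpy 2.4.6 and pandas 2.3.3.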

Additional observations from a re-analysis of the deposited data

How the results depend on the processing

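No paired analysis was possible because each population has 1 array. The 2-fold calls of the members depend most on the probe set. With each gene at the median of all its probe sets, only Bcl2, Mcl1 and Bbc3 were above the floor, and 0 of these 3 were 2-fold apart in each of the 6 comparisons. Bcl2 was then at -0.87, -0.73 and -0.39 log2 in Foxp3-fusion, Foxp3-null and GFP- CD25+ over GFP- CD25- cells; Bcl2l11 and Bmf were not measured, so this setting says nothing about their calls. With the main probe set chosen among those with the plain ending _at, the counts were 0 in Foxp3-fusion over Foxp3-null cells, 1 (Bcl2) in GFP- CD25+ over GFP- CD25- cells, 1 (Mcl1, higher) in Foxp3-fusion over GFP- CD25+ cells and 0 in Foxp3-null over GFP- CD25+ cells. In Foxp3-fusion over GFP- CD25- cells the count stayed at 2 but with other genes: Bcl2l11, at -0.35 log2, lost its call, and Mcl1, at 1.14, gained one beside Bcl2. On the deposited scale the count in Foxp3-fusion over Foxp3-null cells went from 1 to 0. A floor 1 log2 unit higher removed Bmf and left 1 in each of the 3 comparisons with GFP- CD25+ cells. At 3-fold the counts were 0 in Foxp3-null over GFP- CD25-, Foxp3-fusion over Foxp3-null, GFP- CD25+ over GFP- CD25- and Foxp3-null over GFP- CD25+ cells, and 1 (Bcl2l11) in Foxp3-fusion over GFP- CD25+ cells. At 1.5-fold Foxp3-null over GFP- CD25- cells had 2, Bcl2 and Bcl2l11. Counts under the other alternatives were within 1.5 times the main count, 28 in all with that one; at 1.5-fold GFP- CD25+ over GFP- CD25- cells had 3, Bcl2l11 added. No difference of at least 2-fold reversed under any alternative run, but few alternatives changed the probe set. Bmf was not measured in those that did, and Bcl2l11 only in that with the plain ending _at. Bcl2 kept its main probe set except under the median. On probe set 1457687_at, Bcl2 was at 1.05 log2 in Foxp3-null over GFP- CD25- cells, where its main probe set was at -1.58. With 1 array per population, signal near the floor limits Bak1, Bid, Bbc3, Bad and Bmf.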
